A study of Mus musculus with 2 samples.

Results

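Transcript levels of 10 genes of the calnexin cycle, the disulfide isomerases and the heat shock chaperones of the endoplasmic reticulum (ER) were compared between 2 poly-A RNA libraries of MS1 cells. MS1 is an immortalised line of mouse endothelium that was derived from pancreatic islets. The cells of one library carried a lentivirus with a short hairpin RNA against Pspc1, and those of the other a lentivirus with a hairpin against LacZ, a bacterial gene used as the control. The product of Pspc1 binds RNA and sits in nuclear bodies called paraspeckles. The labels give the genotype as Pspc1 knockdown for the Pspc1 hairpin library and as wild type for the LacZ hairpin library; these libraries are also called the knockdown and the control. Each group held 1 library, so no difference has a replicate check and no p-value was computed. The sources used here do not state how many hairpins or clones stand behind each library.

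The 10 genes were chosen by their roles, around Pdia3, which was selected on its 5.07-fold lower value in the Pspc1 hairpin library. All 10 were among the 11405 genes listed in both deposited tables. Because a measured difference chose the set, the values of these genes are given as a description. The deposited values are the authors' scaled signal per gene, and in each library all of them were whole multiples of the same step. Values divided by that step are called reads here, on the assumption that the step is the worth of 1 read. They sum to 53518762 reads over the listed genes in the Pspc1 hairpin library and 64009912 in the LacZ hairpin library. Pspc1 itself had a value of 3.78 in the Pspc1 hairpin library and 28.8 in the LacZ hairpin library, a log2 ratio of -2.77 with a 95% counting interval of -3.15 to -2.71. For the ratio 0.5 was added to each value, but not for the interval. The mean of both Pspc1 values, 16.3, was under the minimum of 50 set below for a call. Of 15 endothelial markers 13 were listed, with summed values of 7636 in the Pspc1 hairpin library and 7386 in the LacZ hairpin library, led by Pecam1. Of these 13, 5 had a ratio above 0 and 8 below, with Cdh5 at 511.2 in the Pspc1 hairpin library and 859.4 in the LacZ hairpin library and Kdr at 77.3 in the knockdown and 148.9 in the control. In the other direction, Esam had 566.1 in the knockdown and 376.5 in the control, and Tie1 1355 in the knockdown and 1079.5 in the control. None of 9 islet endocrine markers was listed, and 2 of 10 fibroblast and mural markers were, at summed values of 3.4 in the knockdown and 1.9 in the control. The epithelial keratin gene Krt18 (36.9 in the Pspc1 hairpin library, 23.9 in the LacZ hairpin library) and the macrophage marker Cd68 (123.7 in the knockdown and 102.7 in the control) were the others listed, of 7 epithelial and 8 leukocyte markers. Their part in any result was not tested, and fewer cells of a type cannot be told apart from less RNA per cell in such bulk libraries.

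Proteins that enter the ER with N-linked glycans are folded there by a lectin system. Glucosidase II, whose catalytic subunit is encoded by Ganab, trims glucose from the glycan and leaves a form that the membrane lectin calnexin (Canx) and the soluble lectin calreticulin (Calr) bind. Both lectins bring in ERp57, the product of Pdia3, which forms and rearranges disulfide bonds of the bound glycoprotein. UGGT1 senses glycoproteins that are still misfolded and puts glucose back on them, so that they return to the lectins. Other disulfide isomerases (P4hb, Pdia4, Pdia6) act on a wider range of proteins. BiP (Hspa5) and GRP94 (Hsp90b1) are the ER forms of Hsp70 and Hsp90. In endothelial cells this machinery folds secreted matrix proteins, growth factors and membrane receptors. When unfolded proteins accumulate, the unfolded protein response raises transcription of many of these genes through ATF6 and XBP1.

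Promoters of 5 of the 10 genes hold a shared sequence that did not enter their choice. The ER stress element (ERSE) reads CCAAT, then 9 bases of any kind, then CCACG, and is bound by ATF6 together with the CCAAT-binding factor NF-Y. It was defined in mammalian promoters of this group of chaperones, so its presence in them is known background. RefSeq promoter windows on GRCm38.p6, from 250 bases before to 50 bases after each gene's start, were searched on both strands. All 10 genes matched a window. An exact ERSE was present in 5 of the 10 (Canx, Calr, Pdia6, Hspa5 and Hsp90b1), against 39 of 32544 windows in the whole table (0.12%). With at most 1 mismatch, 7 of the 10 held it, against 1.51% of all windows. The sites are shown because Pdia3 and Canx, the genes with the lowest ratios, differ in this respect. Each is written in the direction of the motif, with the letters that match its fixed positions in capitals.
Canx: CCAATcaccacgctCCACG
Calr: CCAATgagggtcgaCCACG
Pdia6: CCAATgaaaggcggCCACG
Hspa5: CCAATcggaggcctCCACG
Hsp90b1, site nearer to the start: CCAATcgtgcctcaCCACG
Hsp90b1, site farther from the start: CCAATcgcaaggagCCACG
Pdia3, 1 mismatch: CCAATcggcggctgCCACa
Pdia4, 1 mismatch: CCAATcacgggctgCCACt

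The Pdia3 site differed from the motif by G19A and the Pdia4 site by G19T, with positions counted from 1 at the 5′ end of the motif and the motif's base first. Places in the promoter are those of the base of each site farthest upstream, counted from the RefSeq start with negative values before it. The Pdia3 site was at -29, the Hspa5 site at -65, the Pdia6 site at -98, the Canx site at -145 and the Calr site at -162. Hsp90b1 held exact sites at -107 and -212. The Calr site and the Hsp90b1 site at -107 lay on the strand opposite to the gene, so for them that base is the last of the motif. The windows of Uggt1, Ganab and P4hb held none with at most 1 mismatch. RefSeq starts can differ from the gene positions given elsewhere in the text, which are those of the GENCODE annotation. The Pdia3 and Hspa5 sites lie inside the GENCODE genes, which begin at 121413775 and 34771970. The Uggt1 window (chr1:36244253-36244552, minus strand) lies wholly inside the GENCODE gene, which ends at 36244720. It therefore holds no sequence upstream of that annotated start. No window of the 10 held either of the other elements searched, ERSE-II (ATTGG, then 1 base, then CCACG; 0.037% of all windows) or the UPRE letters TGACGTGG (0.682%). A match is a description of the letters and not a measurement of binding. Among related ER genes an exact ERSE was present in Creld2, Dnajc3 and Syvn1.

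The windows of Pdia3, Canx and Hspa5 are printed in full on the strand of the gene, since they hold a near match, an exact match in a gene with a lower ratio, and an exact match in Hspa5, a classic target of this response. Capitals mark the fixed positions of the ERSE.
Pdia3, chr2:121413652-121413951, plus strand: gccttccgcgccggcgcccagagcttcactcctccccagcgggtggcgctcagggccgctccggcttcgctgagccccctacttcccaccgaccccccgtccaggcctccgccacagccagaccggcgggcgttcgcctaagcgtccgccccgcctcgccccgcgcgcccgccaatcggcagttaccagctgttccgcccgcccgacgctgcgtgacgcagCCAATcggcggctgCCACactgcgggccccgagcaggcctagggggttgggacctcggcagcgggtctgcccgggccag
Canx, chr11:50325624-50325923, minus strand: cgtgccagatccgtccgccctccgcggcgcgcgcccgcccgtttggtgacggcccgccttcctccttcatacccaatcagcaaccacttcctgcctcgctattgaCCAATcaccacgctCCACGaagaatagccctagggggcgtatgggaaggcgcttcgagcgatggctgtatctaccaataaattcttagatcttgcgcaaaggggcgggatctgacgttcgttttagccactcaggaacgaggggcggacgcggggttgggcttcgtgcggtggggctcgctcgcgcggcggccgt
Hspa5, chr2:34771840-34772139, plus strand: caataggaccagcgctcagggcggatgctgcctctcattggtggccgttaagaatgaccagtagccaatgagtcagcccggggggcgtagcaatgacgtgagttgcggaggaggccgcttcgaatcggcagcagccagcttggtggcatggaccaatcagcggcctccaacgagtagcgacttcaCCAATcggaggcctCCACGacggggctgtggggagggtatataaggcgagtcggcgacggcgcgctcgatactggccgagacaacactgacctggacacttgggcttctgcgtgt

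The GC content of these windows was 75.7% for Pdia3, 63.0% for Canx and 61.3% for Hspa5. That of Calr was 60.3%, and those of the other 6 lay between 54.7% for Ganab and 70.0% for Pdia6.

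Among the lectin chaperones and their partner isomerase, Pdia3 and Canx were lower in the Pspc1 hairpin library while Calr was slightly higher. Differences are given as log2 ratios of Pspc1 hairpin over LacZ hairpin, with 0.5 added to each value. A gene was called lower or higher if the mean of both values was at least 50 and the change at least 2-fold. Of the 10 genes 9 reached that mean, 2 of them were called lower and none higher, while 0.937% of the 3629 genes with such a mean were called lower and 0.551% higher. Since the contrast itself chose Pdia3, nothing is read from that count.

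Pdia3 (ENSMUSG00000027248, mm10 chromosome 2, 121413775 to 121438687, plus strand) had a value of 78.9 in the Pspc1 hairpin library and 399.6 in the LacZ hairpin library. Its log2 ratio of -2.33, with a counting interval of -2.39 to -2.29, rested on 4003 reads in the knockdown and 26074 in the control, and no other gene of mean 50 or more had a lower ratio. Per kilobase of exon, Pdia3 ranked 2318th of all listed genes in the Pspc1 hairpin library and 459th in the LacZ hairpin library.

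Canx (ENSMUSG00000020368, mm10 chromosome 11, 50293961 to 50325673, minus strand), the membrane-bound lectin, measured 112.3 in the Pspc1 hairpin library and 237.9 in the LacZ hairpin library. This 2.12-fold difference (log2 ratio -1.08, counting interval -1.13 to -1.04, 5699 reads in the knockdown and 15523 in the control) lay just inside the 2-fold limit and was the 22nd lowest among genes of mean 50 or more. After subtraction of a smooth fit on exonic length and GC content the log2 ratio of Canx was -0.88, which ended the call.

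Calr (ENSMUSG00000003814, mm10 chromosome 8, 84841850 to 84846934, minus strand), the soluble counterpart of calnexin, had values of 1417 in the Pspc1 hairpin library and 1236 in the LacZ hairpin library. Its log2 ratio was 0.20 (counting interval 0.18 to 0.21), below the 2-fold limit. Of genes with a mean of 50 or more, 68.7% had a ratio at or below it. Their 25th and 75th percentiles were -0.115 and 0.245, so Calr lay within the common range. The ratio of Canx was below 0 and that of Calr above 0 under each scaling that was tried.

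Ratios inside a library do not depend on how the libraries are scaled to each other. The length and GC fit was not applied to these ratios, here or below. After that fit the log2 ratios were -0.88 for Canx and 0.16 for Calr. Per kilobase of exon, Canx was present at 0.0486 of the level of Calr in the Pspc1 hairpin library and at 0.118 in the LacZ hairpin library. The 95% counting intervals were 0.0473 to 0.0499 in the knockdown and 0.116 to 0.120 in the control. Pdia3 stood at 0.0510 of Calr in the Pspc1 hairpin library and at 0.297 in the LacZ hairpin library. Relative to Canx, Pdia3 stood at 1.05 in the knockdown and at 2.51 in the control. The ratios with Pdia3 follow in part from the difference that chose it, and are given as a description.

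**Figure D1:**
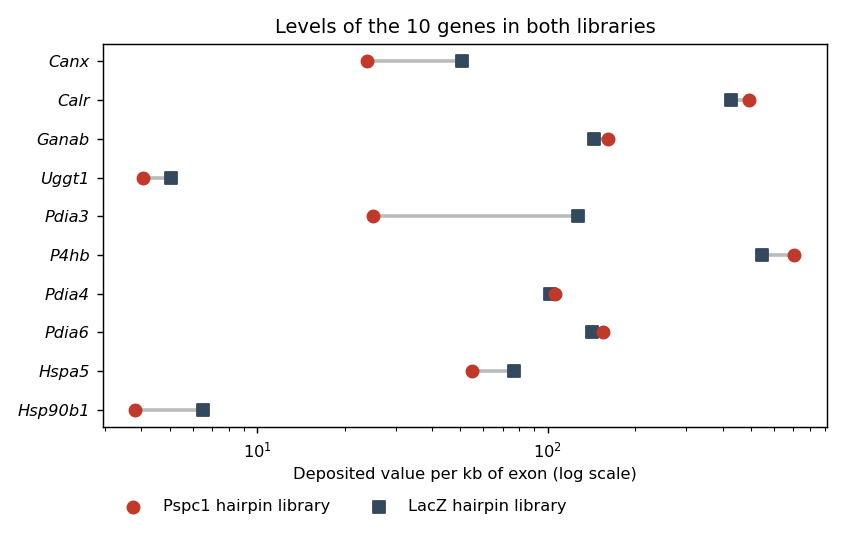
Deposited value per kilobase of exon on a log axis for each of the 10 genes, with the Pspc1 hairpin library as red circles and the LacZ hairpin library as dark squares (1 library each, no error bars). The widest gap is that of Pdia3, at 25.1 in the Pspc1 hairpin library and 127.3 in the LacZ hairpin library, followed by Canx at 23.9 in the Pspc1 hairpin library and 50.7 in the LacZ hairpin library.

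The glycan-processing enzymes showed no difference of 2-fold. Ganab (ENSMUSG00000071650, chromosome 19), the catalytic subunit of glucosidase II, had values of 882.4 in the Pspc1 hairpin library and 790.3 in the LacZ hairpin library (log2 ratio 0.16, counting interval 0.14 to 0.18). Uggt1 (ENSMUSG00000037470, chromosome 1), the folding sensor, had 52.3 in the Pspc1 hairpin library and 65.2 in the LacZ hairpin library. The log2 ratio of Uggt1 was -0.32 (counting interval -0.39 to -0.25) and -0.06 after the length and GC fit. Its total exonic length of 12853 bases was the largest of the 10. Per kilobase of exon Ganab stood at 39.8 times the level of Uggt1 in the Pspc1 hairpin library and at 28.6 times in the LacZ hairpin library. The fit was not applied to these levels, and after it the log2 ratio of Ganab was 0.19.

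The other 3 disulfide isomerases were not lower in the Pspc1 hairpin library as deposited. P4hb (ENSMUSG00000025130, chromosome 11), which encodes the classical protein disulfide isomerase and the beta subunit of collagen prolyl 4-hydroxylase, had values of 2023 in the Pspc1 hairpin library and 1568 in the LacZ hairpin library. Its log2 ratio of 0.37 (counting interval 0.36 to 0.38) was the highest of the 10. Pdia6 (ENSMUSG00000020571, chromosome 12), which encodes P5, an isomerase that works with BiP, had 582.0 in the knockdown and 530.7 in the control (log2 ratio 0.13, interval 0.11 to 0.16).

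Pdia4 (ENSMUSG00000025823, chromosome 6), which encodes ERp72, had 253.7 in the Pspc1 hairpin library and 244.3 in the LacZ hairpin library. Its log2 ratio of 0.05 (counting interval 0.02 to 0.09) turned to -0.05 when the libraries were scaled by total reads, so no direction is given for it. Per kilobase of exon, Pdia3 was at 25.1 and Pdia4 at 105.8 in the Pspc1 hairpin library. In the LacZ hairpin library Pdia3 was at 127.3 and Pdia4 at 101.8.

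The shares of the isomerases follow in part from the Pdia3 difference that chose the set, and are given as a description. Over 17 listed genes of the protein disulfide isomerase family, Pdia3 made up 2.01% of the summed level per kilobase in the Pspc1 hairpin library and 11.3% in the LacZ hairpin library. As a share of the family's reads this was 1.96% (exact Clopper-Pearson 95% interval 1.90 to 2.02%) in the Pspc1 hairpin library and 10.9% (10.8 to 11.0%) in the LacZ hairpin library. P4hb held 56.7% of the family level in the Pspc1 hairpin library and 48.5% in the LacZ hairpin library. With Pdia3 left out of the sum, P4hb held 57.8% of the other 16 genes' level in the knockdown and 54.7% in the control. Txndc5, an isomerase also called endothelial PDI, held 7.98% in the knockdown and 6.05% in the control, or without Pdia3 8.14% in the knockdown and 6.82% in the control. The summed level of the family was 1247 per kilobase in the Pspc1 hairpin library and 1130 in the LacZ hairpin library, or without Pdia3 1222 in the knockdown and 1002 in the control.

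**Figure D2:**
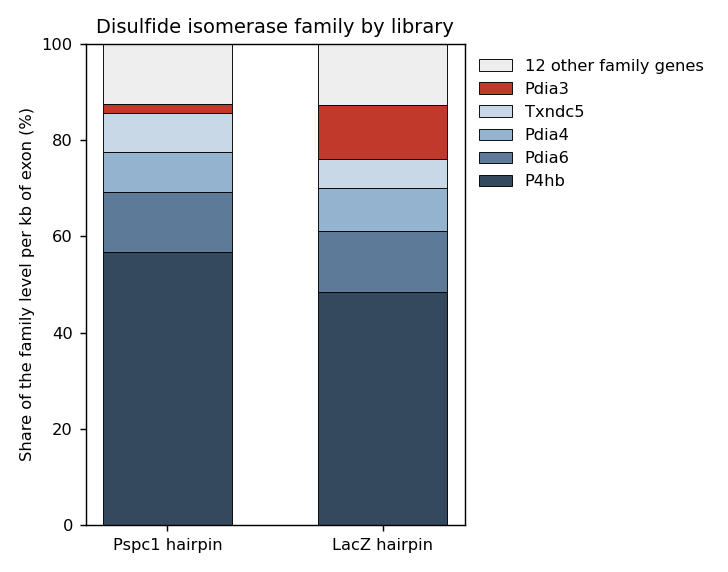
Share of each gene in the summed level per kilobase of exon of 17 disulfide isomerase family genes, with the Pspc1 hairpin library on the left and the LacZ hairpin library on the right (1 library each). The Pdia3 segment is 2.01% in the Pspc1 hairpin library and 11.3% in the LacZ hairpin library, and P4hb is the largest segment in both.

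Both ER heat shock protein genes had values below the control without reaching the rule. Hspa5 (ENSMUSG00000026864, mm10 chromosome 2, 34771970 to 34777547, plus strand), which encodes BiP, had 231.8 in the Pspc1 hairpin library and 323.99 in the LacZ hairpin library. Its log2 ratio was -0.48 (counting interval -0.52 to -0.45; 1.40-fold), and 5.5% of genes with a mean of 50 or more had a ratio at or below it. It was the nearest to the 2-fold limit among the 7 genes of sufficient mean that were not called.

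Hsp90b1 (ENSMUSG00000020048, mm10 chromosome 10, 86690209 to 86705509, minus strand), which encodes GRP94, had 15.4 in the Pspc1 hairpin library and 26.3 in the LacZ hairpin library. With a mean of 20.8 it fell short of the minimum, and its log2 ratio was -0.75 (counting interval -0.90 to -0.65) on 781 reads in the knockdown and 1715 in the control. Per kilobase of exon Hspa5 stood at 14.4 times Hsp90b1 in the Pspc1 hairpin library and at 11.8 times in the LacZ hairpin library. Exons of Hsp90b1 overlap 415 bases of the opposite-strand transcribed pseudogene 1810014B01Rik, which had values of 4.90 in the Pspc1 hairpin library and 5.95 in the LacZ hairpin library. They also overlap 84 bases of the same-strand transcript Gm15344 and 133 bases of the microRNA gene Gm25745, neither of them listed. The part of these overlaps in the low level of Hsp90b1 was not tested. Exons of Pdia3 share 18 bases with the opposite-strand gene Catsper2, those of Pdia6 share 50 bases with Atp6v1c2 and those of Pdia4 share 14 bases with Mir704, none of these being listed.

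**Figure D3:**
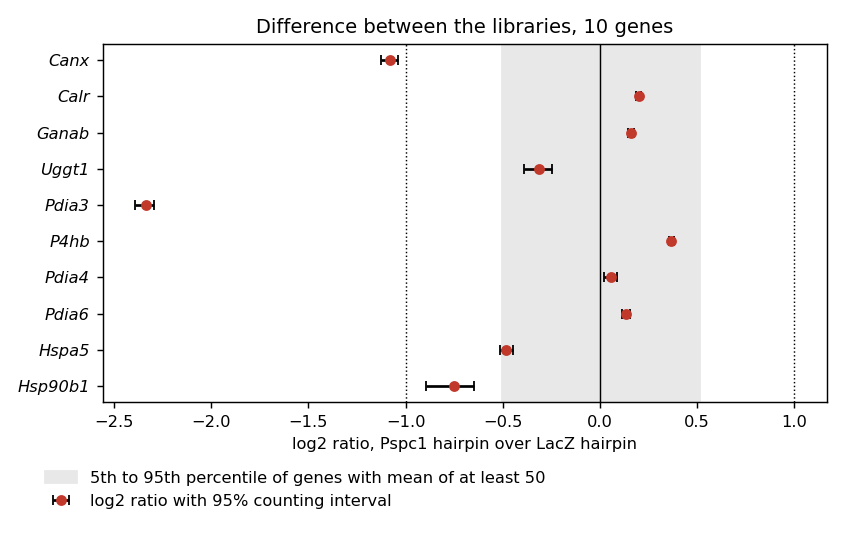
log2 ratio of Pspc1 hairpin over LacZ hairpin for the 10 genes (points) with exact 95% counting intervals (bars), which cover counting error only. The grey band spans the 5th to 95th percentile (-0.50 to 0.51) of genes with a mean of 50 or more, and dotted lines mark 2-fold. Pdia3 and Canx lie past the lower line, Hsp90b1 lies between that line and the band, and the other 7 lie inside the band.

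Across the 10 genes the log2 ratios had a median of -0.13, with 5 above 0 and 5 below. The median of all 11405 listed genes was -0.05, and 45.2% of them had a ratio above 0. Among the 3629 genes with a mean of 50 or more, the class of 9 of the 10, the median was 0.07 and 60.1% were above 0. The ratios of the 10 ran over 2.70 log2 units. Counting intervals excluded 0 for each of the 10, as they did for 86.8% of genes with a mean of 50 or more. The spread between cultures was not measured.

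The log2 ratios of the 10 genes ran with the base composition of their transcripts. Hsp90b1 and Canx, with 42.1% and 42.2% GC in their longest annotated transcript, and Hspa5, with 45.6%, were below 0. P4hb, with 53.8%, was highest. Spearman's rho between log2 ratio and GC content was 0.87 over the 10 genes and 0.92 over 9 without Pdia3, given as a description across genes of the same libraries and with no p-value. Over 3627 genes with a mean of 50 or more rho was 0.24. Their median log2 ratio was -0.145 below 44% GC and 0.139 at 55% GC and above. With exonic length rho was -0.32 over the 10 genes and -0.30 over those 3627.

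Genes of like base composition were set beside the lowest of the 10. The Pdia3 transcript has 46.9% GC, and the 584 other genes of mean 50 or more within 2 percentage points of that had a median log2 ratio of 0.01, with a 5th percentile of -0.48. After the length and GC fit Pdia3 was at -2.28. For Canx, 226 such genes had a median of -0.15 and a 5th percentile of -0.72, and 2 of them were lower than Canx. For Hspa5 the 463 such genes had a 5th percentile of -0.56, below its own -0.48. For Hsp90b1 the 223 such genes had a 5th percentile of -0.76, next to its own -0.75. With a mean of 20.8, Hsp90b1 was itself outside the class of those genes. The corrected log2 ratios were -0.37 for Hspa5 and -0.56 for Hsp90b1.

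**Figure D4:**
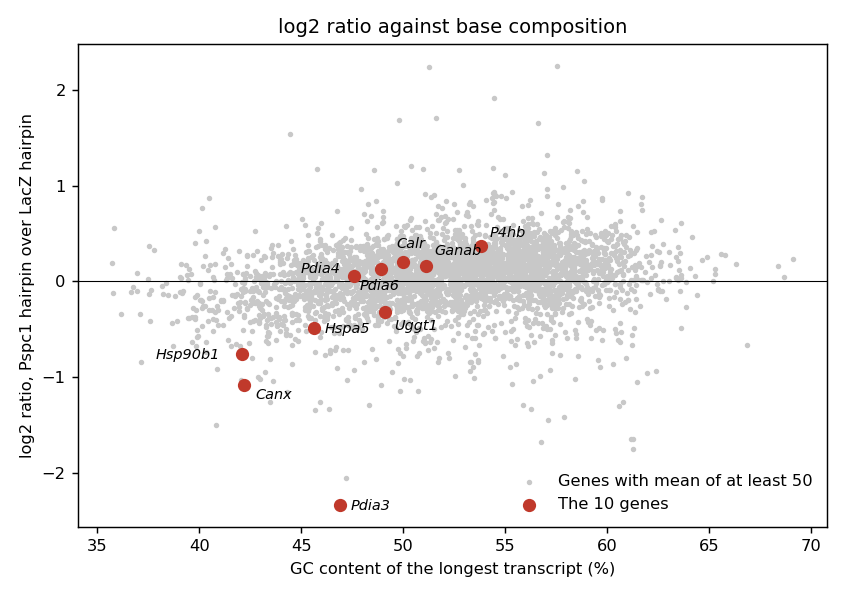
log2 ratio of Pspc1 hairpin over LacZ hairpin (y axis) against GC content of the longest annotated transcript in percent (x axis), for genes with a mean of 50 or more (grey) and the 10 genes (red, named). Apart from Pdia3 at -2.33, the red points tend upward from Canx at 42.2% to P4hb at 53.8%.

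Of the listed neighbours of Pdia3, 3 on either side, only Serf2 reached the mean of 50 that a call requires, and it was not called. The nearest listed gene downstream, Serf2, lies 10508 bases away and had values of 214.2 in the Pspc1 hairpin library and 204.9 in the LacZ hairpin library (log2 ratio 0.06, counting interval 0.03 to 0.10). Upstream, Ppip5k1 had 10.8 in the Pspc1 hairpin library and 8.86 in the LacZ hairpin library. Trp53bp1 (26.2 in the knockdown and 28.5 in the control), Map1a (2.21 in the knockdown and 2.19 in the control), Mfap1b (1.14 in the knockdown and 1.96 in the control) and Mfap1a (0.83 in the knockdown and 1.70 in the control) were the other neighbours, and all but Serf2 had means under 50. Mfap1a and Mfap1b are near-identical copies, so their reads may be split. By ratio, the genes of mean 100 or more closest to Pdia3 were Angpt2 (46.1 in the Pspc1 hairpin library and 193.6 in the LacZ hairpin library), Plec (109.8 in the knockdown and 369.5 in the control) and Cycs (71.0 in the knockdown and 201.0 in the control), a likeness over 2 libraries.

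Genes that work with the calnexin cycle were examined in 12 lists, which hold 156 listed genes besides the 10. Of the 156, 102 reached a mean of 50 and none was called, where 0.937% of all genes with such a mean were called lower and 0.551% higher. A count of 0 among 102 genes is near those shares. Among these 102 the log2 ratios ran from -0.50 for Ube2j1, an ER ubiquitin-conjugating enzyme, to 0.65 for Calu, the calcium-binding protein calumenin. A ratio above 0.5 was seen for 10 of the 102 (9.8%) and below -0.5 for 1 (0.98%), against 5.4% and 5.1% of all genes with such a mean. Of the 102, 68 (66.7%) were above 0, against 60.1% of all genes with such a mean; sign counts of single lists include genes of lower mean.

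Upstream of the cycle, oligosaccharyltransferase attaches the glycan. All 12 of its genes were listed, 9 with a ratio above 0, and their median was 0.17; 10 of the 12 had a mean of 50 or more, a class in which 60.1% of all genes were above 0. Ddost, a subunit of the complex, had 467.7 in the Pspc1 hairpin library and 355.3 in the LacZ hairpin library, Dad1 145.5 in the knockdown and 115.2 in the control, and the catalytic subunit gene Stt3b 90.6 in the knockdown and 115.6 in the control. The translocon and signal peptidase list (17 genes, median 0.06) included Ssr3 at 128.9 in the Pspc1 hairpin library and 171.2 in the LacZ hairpin library. In that list Sec11a had 76.6 in the knockdown and 58.6 in the control and Sec61g 161.2 in the knockdown and 127.7 in the control.

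Among 16 listed genes of glycan processing, lectin receptors and sorting, 6 had a ratio above 0 and the median was -0.11. Malectin (Mlec), a lectin for diglucosylated glycans, had 410.2 in the Pspc1 hairpin library and 279.4 in the LacZ hairpin library. Os9, a lectin that delivers misfolded glycoproteins to degradation, had 212.2 in the knockdown and 144.9 in the control and Mcfd2, a cargo receptor subunit, 134.8 in the knockdown and 99.3 in the control. Prkcsh, the partner subunit of Ganab, was chosen for mention after its values were seen and had 537.6 in the knockdown and 413.4 in the control. The lowest ratio in the list was that of the cargo receptor gene Lman1 (-0.96), which had a mean under 50. The 19 listed genes of ER-associated degradation had a median of 0.08, with Selenos at 75.03 in the Pspc1 hairpin library and 50.8 in the LacZ hairpin library, and Ube2j1 at 53.9 in the knockdown and 76.6 in the control.

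None of the other thiol and chaperone genes was called. The list of other disulfide isomerases (14 listed, median -0.11) also holds P4ha1 (log2 ratio -0.44), a subunit of prolyl 4-hydroxylase and not an isomerase. P4ha1 was left out of the family shares above but is counted in this median. Of the 14, 7 had a ratio above 0 and 7 below, P4ha1 among the latter. Txndc5 had 447.0 in the Pspc1 hairpin library and 307.2 in the LacZ hairpin library. In that list Txndc12 had 63.7 in the knockdown and 46.9 in the control and Dnajc10, an ER reductase, 45.6 in the knockdown and 60.4 in the control. Thiol oxidases and peroxidases (8 listed, median -0.02) included Qsox1, a sulfhydryl oxidase, at 162.1 in the Pspc1 hairpin library and 112.2 in the LacZ hairpin library. Prdx4 had 123.4 in the knockdown and 103.5 in the control, and Qsox2 64.6 in the knockdown and 71.3 in the control. Of 15 cofactors of the ER Hsp70 and Hsp90, 9 had a ratio above 0 (median 0.07), with Sdf2l1 at 86.4 in the knockdown and 67.7 in the control, Sdf2 at 67.5 in the knockdown and 53.5 in the control and the nucleotide exchange factor gene Hyou1 at 406.4 in the knockdown and 341.0 in the control. Among 8 peptidyl-prolyl isomerases (median 0.13) Fkbp10 had 443.0 in the knockdown and 301.3 in the control, Fkbp11 110.9 in the knockdown and 98.4 in the control, and Ppic 85.8 in the knockdown and 98.4 in the control.

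The 26 genes of the unfolded protein response divided evenly, with 13 above 0, 13 below and a median of 0.01. Xbp1, the transcription factor spliced by IRE1, had 160.8 in the Pspc1 hairpin library and 107.3 in the LacZ hairpin library. Gene-level values do not separate its spliced form. Wfs1, a membrane protein induced in this response, had 82.5 in the knockdown and 53.7 in the control, and Mbtps1, a protease that activates ATF6, had 91.9 in the knockdown and 124.4 in the control. The only gene of the list past a log2 ratio of 1 was Nupr1 (1.01), at a mean under the minimum. Creld2 and Dnajc3, whose promoter windows hold an exact ERSE, had log2 ratios of 0.21 and -0.34. That of Syvn1 was 0.26. These 3 were chosen for mention after the promoter search. Of the 5 genes with an exact ERSE among the 10, Calr and Pdia6 were above 0 and Canx, Hspa5 and Hsp90b1 below.

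Collagen folding genes (12 listed, median -0.01) shared P4hb's setting, since its product is a subunit of prolyl 4-hydroxylase. Serpinh1, the collagen chaperone HSP47, had 2334 in the Pspc1 hairpin library and 1675 in the LacZ hairpin library, P3h1 133.2 in the knockdown and 102.1 in the control, and P3h4 110.0 in the knockdown and 132.8 in the control. MHC class I peptide loading is another setting in which Pdia3 and Calr act, and Tapbp encodes tapasin, the partner to which ERp57 binds there. Of its 6 genes 5 had a ratio above 0 (median 0.48), against 45.2% of all listed genes and 60.1% of those with a mean of 50 or more. Only 2 of the 6 reached that mean, so the median rests mostly on genes below it. These were Tapbp, at 102.8 in the Pspc1 hairpin library and 76.9 in the LacZ hairpin library, and B2m, at 350.1 in the knockdown and 285.3 in the control. The highest and lowest ratios, those of Tap1 (0.80) and Erap1 (-0.82), were at means under 50. The ER calcium and retrieval list had the lowest median of the 12 (-0.20 over 16 genes), with Rcn3 lowest at -0.88 and a mean under 50. The 3 genes with the largest change at a mean of 50 or more were above 0, namely Calu at 482.1 in the knockdown and 307.8 in the control, Nucb1 at 474.1 in the knockdown and 326.7 in the control, and the calcium sensor gene Stim1 at 116.1 in the knockdown and 87.6 in the control.

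**Figure D5:**
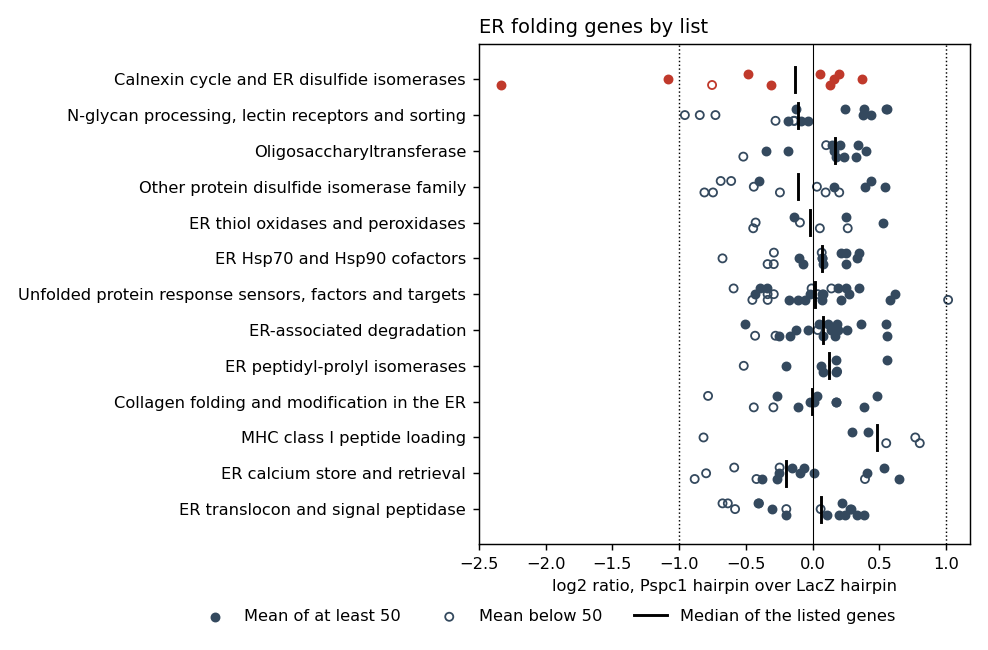
log2 ratio of Pspc1 hairpin over LacZ hairpin for the listed genes of the calnexin cycle set (red) and of 12 related lists (dark), filled for a mean of 50 or more and open below it. Black bars are medians over the listed genes and dotted lines mark 2-fold. Pdia3 and Canx are the only filled points past a dotted line.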

How the data were processed

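Poly-A RNA was extracted with TRIzol and libraries were made with an NEBNext Ultra kit, per the labels' protocols. The submitters' processing notes name Trimmomatic 0.39, HISAT2 2.1.0, featureCounts 2.0.0, DESeq 1.39.0 and the build mm10, without role or order. What the authors deposited is a scaled signal per gene. No source used here gives the scaling formula, the annotation, the strand setting or the treatment of multi-mapped reads. Every value was a whole multiple of a step per library (tolerance 0.01 reads), 0.0197 in the Pspc1 hairpin library and 0.0153 in the LacZ hairpin library. Dividing by it, taken as the worth of 1 read, gave the reads used for 95% exact conditional binomial intervals of the ratio without pseudocount. These reads have no molecular identifiers, so intervals cover counting error only and compare 2 libraries, not 2 conditions.

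Values were used as deposited, with a pseudocount of 0.5, which understates changes of low genes. The members and lists were chosen with earlier results of these data known. Besides the 10 genes and Pspc1, the text names up to 3 genes per list with the largest absolute log2 ratio at a mean of 50 or more, the 3 listed neighbours of Pdia3 on each side and the 3 genes of mean 100 or more nearest to it by ratio; others are said to be chosen later, or are the extremes of a list. Symbols were found for 11399 of 11405 identifiers. Positions and merged exon lengths came from GENCODE M21 (mm10), and GC content from its longest transcript per gene. The length and GC fit was a polynomial surface in log2 length and GC content over genes of mean 20 or more. The steps were run on simulated reads drawn from the mean values of the same genes, with counting error only. Those reads hold no length or GC effect and no spread between cultures, so they cannot check the calls against these. Alternatives were 3 scalings, a larger pseudocount, other minimums, a smaller fold and that fit. Protein features were not analysed here. Python 3.11.15, numpy 2.4.6, pandas 2.3.3, scipy 1.17.1 and matplotlib 3.10.9 were used.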

Additional observations from a re-analysis of the deposited data

How the results depend on the processing

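Pdia3 was called lower under each of 8 alternatives (log2 ratio from -2.44 to -2.27). Canx was called lower under 7 (from -1.18 to -1.03), but the length and GC fit left 1 of the 10 genes called lower, Pdia3. None of the 10 was called higher under any of the 8. The median log2 ratio of the 10 was -0.23 with scaling by total reads and 0.002 after the length and GC fit. Scaling by total reads put the median of all genes at -0.15, against -0.05 as deposited. Pdia4 was the only one of the 10 whose sign changed, to -0.05, with scaling by total reads. The number of genes called among all listed was 24 lower and 23 higher with median-of-ratios scaling, against 34 and 20 as deposited, and 50 and 17 with scaling by total reads. With a 1.5-fold limit 141 were lower and 122 higher, and with a minimum mean of 20, 71 and 50. Without a minimum 306 were lower and 149 higher. In the related lists 1 gene of the unfolded protein response list was called higher with a 1.5-fold limit and 1 without a minimum, and 1 of the calcium list with a 1.5-fold limit; the other settings called none. With scaling by total reads the list medians turned to -0.04 for the Hsp70 and Hsp90 cofactors, -0.03 for degradation, -0.04 for the translocon and -0.09 for the unfolded protein response. After the length and GC fit that of glycan processing turned to 0.04, that of the oxidases to 0.06 and that of the unfolded protein response to -0.04. With median-of-ratios scaling the medians of the oxidase and collagen lists turned to 0.02 and 0.04. With scaling by a trimmed mean of log2 ratios they also turned to 0.02 and 0.04. The larger pseudocount put the oxidase median at 0.007. No paired analysis was possible because each group held 1 library. For the same reason no library could be left out, and no spread between cultures was measured.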
